A study of Homo sapiens with 5 samples.

Results

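Ribosome biogenesis factors are proteins, many of them nucleolar, that transcribe, modify, fold, and cut ribosomal RNA (rRNA) and load it with ribosomal proteins. The mRNA levels of 42 of them, among 27328 genes in the count table, were described in TF-1 cells with and without *MTSS1*. The 42 genes were listed by name for their role, at a time when earlier results of these data were known, and each symbol was matched to 1 Ensembl gene of the table. TF-1 cells are an established human line of acute myeloid leukemia (AML). The control group comprised pools 1 and 2 of cells transduced with Cas9 and sgCtrl, an sgRNA against the *renilla luciferase* gene (n = 2), and the knockout group comprised 1 pool each for sgMTSS1_1, sgMTSS1_2, and sgMTSS1_3, which target *MTSS1* (n = 3), here numbered 1 to 3. All 5 pools carried the lentiviral *Cas9* vector, were untreated, and consisted of 4 single-cell clones each. Hence, a replicate is a pool of clones, each knockout replicate has its own sgRNA, and differences between clones are part of the spread. The sgCtrl pool 3 and the sgMTSS1_4 pool that the supplementary methods mention were left out by the authors as outliers and were not analysed here.

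The assembly of a ribosome starts in the nucleolus. RNA polymerase I (Pol I) makes 1 long precursor, small nucleolar ribonucleoproteins (snoRNPs) guide its methylation and pseudouridylation, and the small subunit (SSU) processome folds and cuts the part that becomes the small subunit. Other factors mature the precursors of the small (pre-40S) and large (pre-60S) subunits. In hematopoietic cells, inherited defects of this machinery cause bone marrow failure, and *NPM1*, which encodes an abundant nucleolar protein, is among the most frequently mutated genes in AML.

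Reads came from the 3′ ends of transcripts, and levels are given as CPM (counts relative to library totals scaled with TMM factors), a unit that does not grow with transcript length. Total counts were 2849979 and 3408827 in the control libraries and 5442639 to 8854899 in the knockout libraries, so that every knockout library was deeper than both controls. Depth and condition cannot be told apart. The smallest level shown by 3 counts was 0.387 to 0.931 CPM. Genes for ribosomal proteins took 7.54% and 9.29% of the counts in control and 11.9% to 17.7% in knockout libraries, and mitochondrially encoded genes took 8.63% to 13.9% and 6.71% to 7.44%. Normalization without both sets of genes gave the same 2 calls among the factors, *NOB1* and *IMP3*. Thinning every library to the smallest total gave these 2 calls as well (4.88% of the tested factors, beside 4.78% of all genes). All 13 hematopoietic marker genes, including *CD34* and *GATA1*, had at least 10 counts in every library, with sums of 1704 to 1894 CPM in control and 1646 to 1884 CPM in knockout pools. Of 8 genes listed as epithelial or stromal markers, *KRT8*, *KRT18*, and *PECAM1* reached 10 counts in every library. The list summed to 208 to 251 CPM in control and 346 to 395 CPM in knockout pools. *PECAM1*, which is not exclusive to such cells, had the highest level of the list in every library. *KRT18* (53.1 and 109 CPM in control, 134 to 137 CPM in knockout pools) and *PECAM1* (143 and 115 CPM in control, 198 to 237 CPM in knockout pools) were higher in every knockout pool without passing the test (adjusted p = 0.246 and 0.184). *EPCAM*, *CDH1*, *COL1A1*, and *DCN* were at 0.692 CPM or less in every library, and the part of this list in the results was not tested. The lymphoid list summed to at most 12.7 CPM.

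*MTSS1*, the targeted gene, was at 203 and 87.4 CPM in control pools 1 and 2 and at 103, 138, and 49.7 CPM in knockout pools 1 to 3. The groups overlapped (log2-fold change −0.58, standard error (SE) 0.47, adjusted p = 0.494, edgeR's quasi-likelihood test). Small insertions or deletions at a 5′ exon need not alter a count of 3′ ends, so this level did not check the labels. The authors checked the knockout by immunoblot in each clone they pooled. The 3′ end of *MTSS1* overlaps *NDUFB9* on the opposite strand, and its count is uncertain if strand was ignored.

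Of the 42 factors, 41 passed the filter on low counts, and 2 were higher in the knockout by the call used throughout, an adjusted p-value under 0.05 with a log2-fold change above 1. They were *NOB1* and *IMP3*, which both act on the small subunit. This is 4.88% of the 41, beside 4.17% of all 14391 tested genes. None of the 41 was lower, beside 1.01% of all genes. The adjusted p-value alone gave the same counts and the same backgrounds, and DESeq2 called 5 of the 41 higher (12.2%, beside 7.34% of the 14082 genes to which it gave an adjusted p-value) and 1 lower (2.44%, beside 1.69%). In RNA from whole pools, fewer cells with a transcript and less of it per cell cannot be told apart.

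The promoters of the called genes are shown, with that of *NOP10*, which had the highest log2-fold change of the 41 tested genes without passing the test and was added after its values were seen. The sequences are the 250 bases before the RefSeq start on GRCh38.p14, all on the minus strand, written 5′ to 3′ at chr16:69754927-69755176 for *NOB1*, chr15:75640225-75640474 for *IMP3*, and chr15:34343137-34343386 for *NOP10*. Capitals mark the motifs searched on both strands, which are GCGCATGC (NRF1 core) in *NOB1*, CCAAT in *IMP3*, and CACGTG (E-box) and CCGGAAG (ETS core) in *NOP10*. 
NOB1: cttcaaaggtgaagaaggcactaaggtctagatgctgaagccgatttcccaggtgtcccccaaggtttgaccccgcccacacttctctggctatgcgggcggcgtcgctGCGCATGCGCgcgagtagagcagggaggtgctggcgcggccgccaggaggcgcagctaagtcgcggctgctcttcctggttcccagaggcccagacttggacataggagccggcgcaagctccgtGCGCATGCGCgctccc
IMP3: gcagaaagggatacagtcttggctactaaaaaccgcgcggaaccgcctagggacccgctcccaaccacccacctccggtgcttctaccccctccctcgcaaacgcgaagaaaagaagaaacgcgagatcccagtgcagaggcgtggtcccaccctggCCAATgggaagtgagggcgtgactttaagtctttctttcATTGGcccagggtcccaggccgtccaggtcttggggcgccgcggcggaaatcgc
NOP10: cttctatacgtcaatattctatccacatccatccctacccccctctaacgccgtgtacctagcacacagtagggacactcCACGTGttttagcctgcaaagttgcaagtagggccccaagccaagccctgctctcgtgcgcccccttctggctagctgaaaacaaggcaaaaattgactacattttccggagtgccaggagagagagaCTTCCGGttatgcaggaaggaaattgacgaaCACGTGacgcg

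In *NOB1*, the core and its reverse complement overlap in each of both places. Promoters were available for 37 of the 42 genes, as windows from 250 bases before to 50 bases after the start. The E-box, which is the site bound by MYC with MAX, occurred in 18 of these 37 windows (48.6%), in 7.23% of all 34943 promoters of the table, and in 10.3% of the 9613 promoters of tested genes. The ETS core occurred in 12 of 37 (32.4%, against 10.2% of all and 20.1% of tested promoters), the CCAAT box in 18 of 37 (48.6%, against 34.6% and 37.7%), and the NRF1 core in 3 of 37 (8.11%, against 3.02% and 5.69%). For the E-box, the median log2-fold change of tested factors was −0.10 (17 with) and 0.09 (19 without). For the ETS core, it was 0.19 (12 with) and −0.06 (24 without). For the CCAAT box, it was 0.12 (18 with) and −0.06 (18 without). For the NRF1 core, it was 0.4 (3 with) and 0.08 (33 without). A match is a run of letters and was not tested as a binding site. *MYC*, whose product activates many genes of this machinery, was at 89.7 and 61.3 CPM in control and at 43.0, 35.4, and 34.1 CPM in knockout pools. Every knockout pool was below both controls, but the difference did not pass the test (log2-fold change −1.01, SE 0.30, adjusted p = 0.0847). *MYC* passed under 2 of 17 alternatives, with the offsets for GC content and length (adjusted p = 0.0477) and without control pool 2 (log2-fold change −1.23, adjusted p = 0.0473). 

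**Figure D1:**
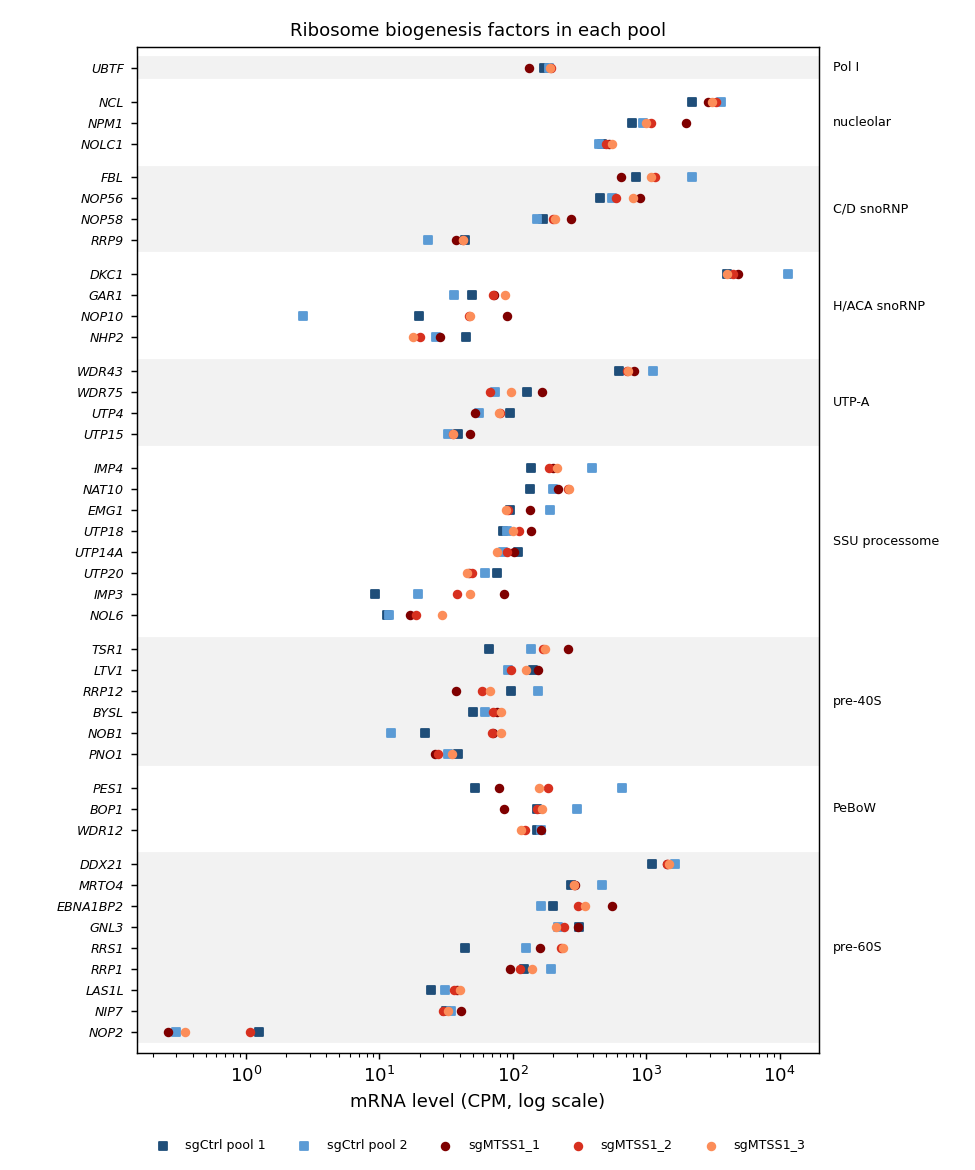
mRNA level in CPM (log axis) of the 42 factors, grouped by role, with 1 square per control pool and 1 circle per knockout pool. Levels ran from under 1.3 CPM for *NOP2* to 11539 CPM for *DKC1* in control pool 2. For *PES1*, the lowest and the highest pool were both controls. For *NOP10*, the control pools differed by a larger ratio than the knockout pools did.

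The factors covered a wide range of levels (the plot of levels by pool), with a median of 133 CPM over all pools, compared to 15.7 CPM for all tested genes. Together, they took 1.54% of the counts in control pool 1 (95% Wilson interval 1.53 to 1.56), 2.63% in control pool 2 (2.61 to 2.65), and 1.61%, 1.74%, and 1.67% in knockout pools 1 to 3. The high share in control pool 2 rested in part on *DKC1*. Without this gene, the shares were 1.09% and 1.49% in control and 1.18%, 1.29%, and 1.27% in knockout pools. All 3 knockout pools lay between the controls with or without *DKC1*. Intervals cover counting error only.

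*NOB1* (chromosome 16, 69741871 to 69754926, minus strand, 9 exons), the endonuclease that makes the final cut of small subunit rRNA, was at 22.0 and 12.1 CPM in control pools 1 and 2 and at 71.2, 69.7, and 81.0 CPM in knockout pools 1 to 3. The 3 knockout pools were close to each other and well above both controls. On average, control pools had 17.1 ± 6.99 CPM (SD, n = 2) and knockout pools 73.9 ± 6.14 CPM (SD, n = 3), a rise of 2.11 on the log2 scale (SE 0.36, adjusted p = 0.0156, edgeR's quasi-likelihood test). These levels rest on 71 and 41 counts in the control and 388 to 552 counts in the knockout libraries. The 3′ end of *NOB1* overlaps *NQO1-DT* on the opposite strand, which was not among the counted genes. The call was lost without the sgMTSS1_1 pool (log2-fold change 2.13, adjusted p = 0.0612) and without the sgMTSS1_3 pool (2.09, adjusted p = 0.0519), where the change itself hardly moved.

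None of the other 5 genes of the pre-40S particle passed the test. *RRP12* (chromosome 10, 97356358 to 97426076, minus strand, 34 exons), which encodes a HEAT-repeat protein needed for the maturation and export of subunits, was at 96.8 and 155 CPM in control and at 37.8, 58.5, and 67.1 CPM in knockout pools. All knockout pools were below both controls, and *RRP12* was the only factor with an unadjusted p-value under 0.05 in this direction (2.44% of the 41, beside 9.23% of all genes). Its log2-fold change of −1.21 (SE 0.35) had an adjusted p of 0.0755 and thus did not pass. DESeq2 (adjusted p = 0.0348), offsets for GC content and length (0.0305), and leaving out control pool 1 (log2-fold change −1.50, adjusted p = 0.0348) each made it a call.

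*TSR1*, which encodes a GTPase-like protein of pre-40S particles, was at 65.8 and 137 CPM in control and at 261, 170, and 174 CPM in knockout pools. The groups did not overlap, but the control pools differed widely (log2-fold change 0.99, SE 0.39, adjusted p = 0.168). Without control pool 2, the log2-fold change was 1.64 and passed (adjusted p = 0.0423), and without control pool 1 it was 0.56. *BYSL* (bystin) had a log2-fold change of 0.44 with every knockout pool above both controls. *LTV1* (0.10) and *PNO1* (−0.28), the partner of NOB1 on the rRNA, had overlapping groups.

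*IMP3* (chromosome 15, 75639085 to 75648706, minus strand, 1 exon in the canonical transcript), a component of the SSU processome that helps pair the U3 snoRNA with the precursor, was at 9.31 and 19.5 CPM in control pools 1 and 2 and at 86.2, 38.4, and 47.9 CPM in knockout pools 1 to 3. The sgMTSS1_1 pool was the highest, and all 3 knockout pools were above both controls. On average, control pools had 14.4 ± 7.24 CPM (SD, n = 2) and knockout pools 57.5 ± 25.3 CPM (SD, n = 3), a rise of 1.99 on the log2 scale (SE 0.47, adjusted p = 0.0438). This call was close to the threshold. It was lost with DESeq2 size factors (adjusted p = 0.0510), with offsets for GC content and length (log2-fold change 1.68, adjusted p = 0.0503), and without control pool 1 (1.57, adjusted p = 0.0879) or the sgMTSS1_1 (1.56, adjusted p = 0.127), sgMTSS1_2 (2.24, adjusted p = 0.0615), or sgMTSS1_3 pool (2.13, adjusted p = 0.0889). The 3′ end of *IMP3* overlaps ENSG00000260206 on the opposite strand, which had only 6 to 25 counts per library.

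*IMP4*, whose product sits beside IMP3 in the same particle, had a log2-fold change of −0.42, and its level of 395 CPM in control pool 2 was the highest of the 5, against 137 CPM in control pool 1. Among the other 6 SSU processome genes, *NOL6* was at 11.5 and 11.8 CPM in control and at 16.9, 18.9, and 29.2 CPM in knockout pools. The groups did not overlap, with a log2-fold change of 0.89 (SE 0.37, adjusted p = 0.190). *NAT10*, the acetyltransferase of small subunit rRNA (0.56), and *UTP18* (0.40) also had every knockout pool above both controls. *UTP20* (−0.54) was the only factor beside *RRP12* with every knockout pool below both. *EMG1*, a methyltransferase (−0.44), and *UTP14A* (−0.12) had overlapping groups. None of the genes for UTP-A, a subcomplex of the processome, passed the test. *UTP15* (0.15), *WDR75* (0.13), *UTP4* (−0.10), and *WDR43* (−0.21) all had overlapping groups, and the smallest adjusted p among them was 0.763.

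**Figure D2:**
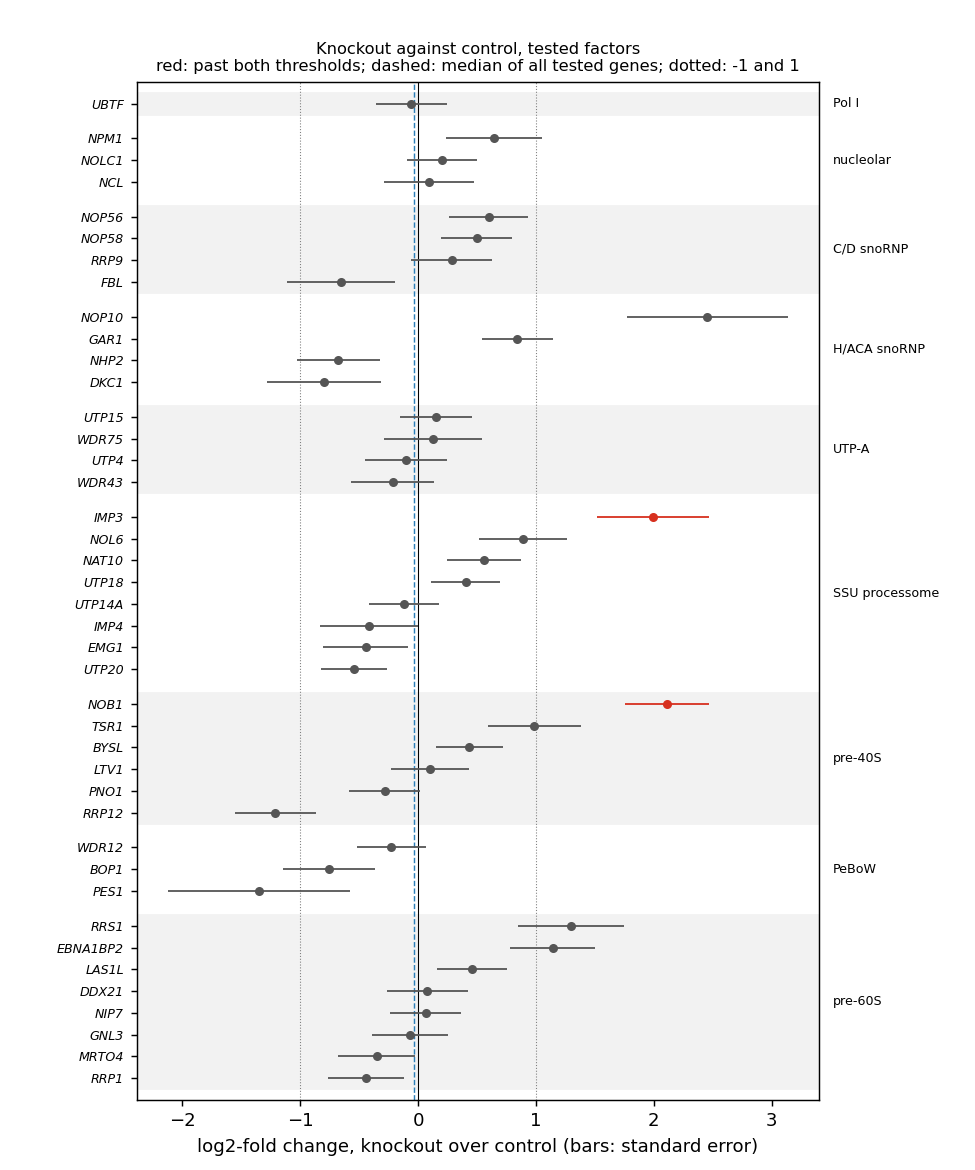
Log2-fold change, knockout over control, of the 41 tested factors by role, with bars for the SE. *NOB1* and *IMP3*, in red, are the 2 factors past both thresholds, the dotted lines are at −1 and 1, and the dashed line is the median of all tested genes (−0.03).

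The box H/ACA snoRNPs, which convert uridine to pseudouridine and share their 4 proteins with telomerase, split evenly, with 2 positive and 2 negative log2-fold changes (the plot of log2-fold changes by role). *NOP10* (chromosome 15, 34339159 to 34343180, minus strand, 2 exons), the smallest of these proteins, was at 19.9 and 2.67 CPM in control and at 90.5, 46.9, and 47.4 CPM in knockout pools. All knockout pools were above both controls, which differed from each other by a larger ratio than the knockout pools did. Control pool 2 held only 9 counts of *NOP10*. The log2-fold change was 2.45 (SE 0.68, adjusted p = 0.0685). It passed under 6 of 16 alternatives, among them DESeq2 (adjusted p = 0.000738), limma-voom (0.0440), and no filter (0.00342). The log2-fold change was 4.53 without control pool 1 and 1.66 without control pool 2.

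*GAR1* was at 49.3 and 36.1 CPM in control and at 72.2, 70.7, and 87.4 CPM in knockout pools. The groups were apart, with a log2-fold change of 0.84 (SE 0.30, adjusted p = 0.137). *DKC1*, which encodes the pseudouridine synthase itself and is mutated in X-linked dyskeratosis congenita, was at 4002 and 11539 CPM in control and at 4891, 4445, and 4059 CPM in knockout pools. It had the highest CPM of all 42 factors, and control pool 2 alone stood apart, while control pool 1 was just below the knockout pools. The log2-fold change of −0.80 (SE 0.48, adjusted p = 0.356) became −1.36 without control pool 1 (adjusted p = 0.0365) and 0.18 without control pool 2. *NHP2* had a log2-fold change of −0.68 with overlapping groups.

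The box C/D snoRNPs guide methylation of rRNA. *FBL*, which encodes the methyltransferase fibrillarin, was at 842 and 2195 CPM in control and at 649, 1168, and 1089 CPM in knockout pools. As for *DKC1*, control pool 2 was the highest, and the groups overlapped (log2-fold change −0.65, SE 0.46, adjusted p = 0.430; 0.23 without control pool 2). The core proteins *NOP56* (0.60) and *NOP58* (0.50) had every knockout pool above both controls, and *RRP9*, which is specific for the U3 snoRNP, had overlapping groups (0.28).

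Of the abundant nucleolar proteins, *NCL* (nucleolin) was at 2203 and 3608 CPM in control and at 2905, 3309, and 3092 CPM in knockout pools. The knockout pools lay between the controls, with a log2-fold change of 0.09 (SE 0.38, adjusted p = 0.913). *NPM1* was at 783 and 949 CPM in control and at 1995, 1078, and 996 CPM in knockout pools. The sgMTSS1_1 pool stood apart, and the others were just above control pool 2 (log2-fold change 0.64, SE 0.41, adjusted p = 0.379; 0.25 without the sgMTSS1_1 pool). The count of *NPM1* is uncertain, because the annotation names 49 pseudogenes of it, 41 of them in the table, and only uniquely mapped reads were kept. *NOLC1*, which encodes a chaperone of snoRNPs, differed little (0.20), although every knockout pool was above both controls. *UBTF*, the factor that binds the rRNA genes for Pol I, had a log2-fold change of −0.06 with overlapping groups.

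Of the factors for the large subunit, *EBNA1BP2* was at 201 and 163 CPM in control and at 553, 309, and 346 CPM in knockout pools. The groups did not overlap, and the sgMTSS1_1 pool was the highest. The log2-fold change was 1.14 (SE 0.36, adjusted p = 0.0972) and passed with DESeq2 (adjusted p = 0.0225) and with no filter (0.0426).

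*RRS1*, which takes part in loading the 5S rRNA complex, was at 43.8 and 125 CPM in control and at 159, 228, and 236 CPM in knockout pools. The groups did not overlap, but control pool 1 was far below control pool 2 (log2-fold change 1.30, SE 0.45, adjusted p = 0.121). Without control pool 2, the log2-fold change was 2.27 (adjusted p = 0.0169), and without control pool 1 it was 0.74. DESeq2 (adjusted p = 0.0384) and no filter (0.0368) also made it a call.

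*DDX21*, which encodes an RNA helicase, was at 1099 and 1637 CPM in control and at 1423, 1427, and 1485 CPM in knockout pools. The knockout pools lay between the controls and close together (log2-fold change 0.08, SE 0.34, adjusted p = 0.919). *LAS1L*, an endonuclease of the internal spacer, had every knockout pool above both controls (0.46). *NIP7* (0.06), *GNL3* (nucleostemin, −0.07), *MRTO4* (−0.35), and *RRP1* (−0.44) had overlapping groups. *NOP2*, an rRNA methyltransferase, had 1 to 6 counts per library and was not tested. The last 500 bases of *NOP2* overlap ENSG00000285238 on the same strand, and whether reads were lost to this overlap was not tested.

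The PeBoW complex of PES1, BOP1, and WDR12 is needed for large subunit rRNA. *PES1* was at 51.8 and 660 CPM in control and at 78.2, 185, and 156 CPM in knockout pools. Control pool 2 was 12.7 times as high as control pool 1, the largest such ratio among the 41 factors, and the knockout pools lay between them. The log2-fold change of −1.35 (SE 0.77, adjusted p = 0.329) was −2.23 without control pool 1 (adjusted p = 0.0168) and 1.45 without control pool 2 (adjusted p = 0.116). *BOP1* (−0.76) and *WDR12* (−0.23) had overlapping groups. All 3 log2-fold changes of the complex were thus negative, but none passed the test, and control pool 2 was above control pool 1 for all 3 genes.

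**Figure D3:**
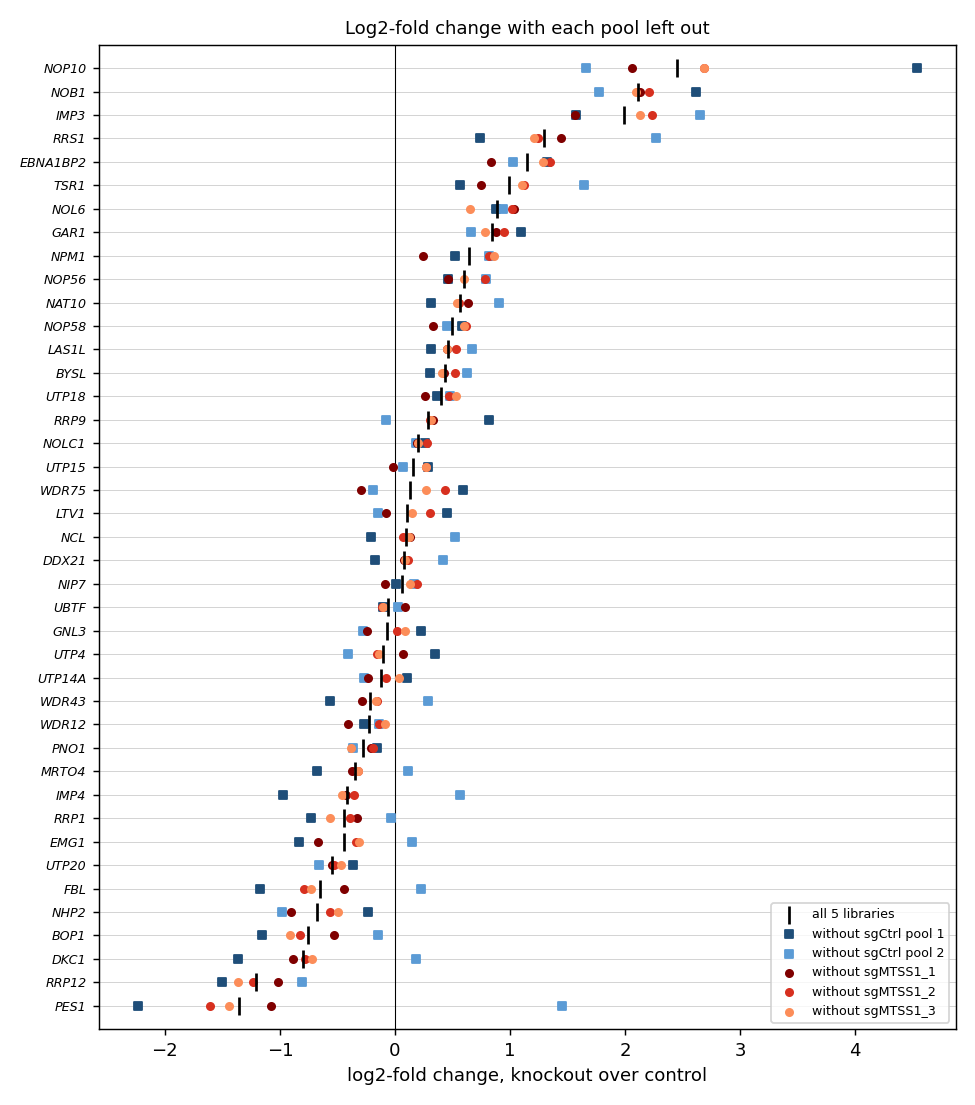
Log2-fold change of the 41 tested factors with all 5 libraries (black ticks) and with each pool left out in turn (squares for control, circles for knockout pools). Leaving out a control pool moved *PES1* from −2.23 to 1.45 and *NOP10* from 1.66 to 4.53.

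Among the 41 factors, 23 had a positive (56.1%, beside 48.3% of all genes) and 18 a negative log2-fold change. The median was 0.09 (quartiles −0.35 and 0.56), compared to −0.03 for all tested genes. An unadjusted p-value under 0.05 was reached in the direction of higher levels by 8 factors (19.5%), beside 14.1% of all genes. Every knockout pool was above both control pools for 16 factors (39.0%, beside 22.2% of all genes) and below both for 2 (4.88%, beside 19.2%), and the groups overlapped for 23. These shares describe the list and are not a test of it. The 41 genes share the same 5 libraries and had a higher median level than all genes. Control pool 2 exceeded control pool 1 more than 2-fold for 7 factors (17.1%, beside 15.0% of all genes), and the reverse held for 1 (2.44%, beside 15.6%). The plot of log2-fold changes with each pool left out shows that the largest move came from leaving out a control pool for 31 factors and a knockout pool for 10, where 1 of 2 control pools carries more weight than 1 of 3 knockout pools. The sgMTSS1_1 pool, the deepest library, was the highest knockout pool for 20 of the 41 factors, beside 38.2% of all genes, and the lowest for 14.

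Across the 41 factors, which share libraries and are not independent, log2-fold change had a Pearson's r of −0.40 with the log2 transcript length and of −0.05 with GC content. Across all 14353 tested genes with both values, r was −0.16 and 0.00115. *NOP10* (507 bases, 2.45), *GAR1* (1015 bases, 0.84), and *IMP3* (1132 bases, 1.99) are short and had positive log2-fold changes. *NHP2* (780 bases, −0.68) and *FBL* (1125 bases, −0.65) are short too and had negative ones.

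**Figure D4:**
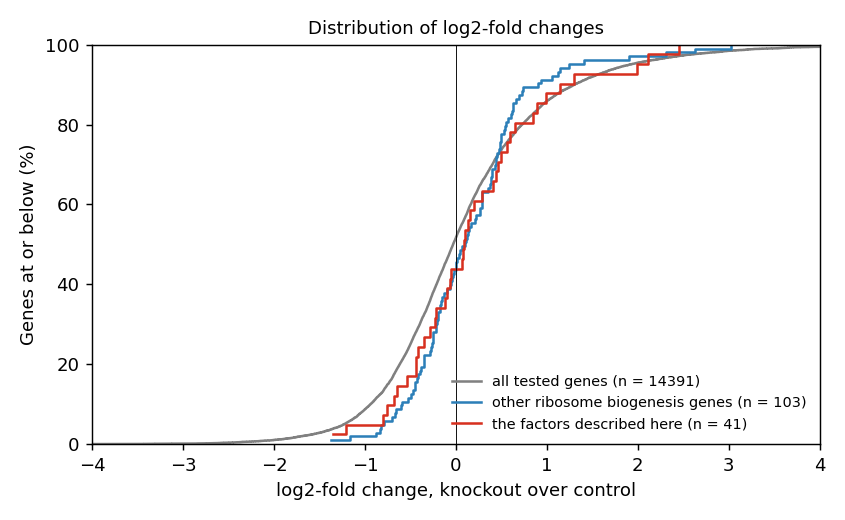
Cumulative share of genes (%) against log2-fold change, knockout over control, for the 41 factors, the 103 other ribosome biogenesis genes, and all 14391 tested genes. The medians are 0.09, 0.10, and −0.03, the lower quartiles −0.35, −0.26, and −0.50, and the upper quartiles 0.56, 0.48, and 0.54.

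A list of 106 other ribosome biogenesis genes was examined in the same way, of which 103 were tested. By edgeR, 4 were higher in the knockout (3.88%, beside 4.17% of all genes) and 0 lower (beside 1.01%). The unadjusted p-value was under 0.05 in 12 for higher (11.7%, beside 14.1%) and in 4 for lower levels (3.88%, beside 9.23%). DESeq2 called 8 higher (7.77%, beside 7.34%) and 1 lower (0.971%, beside 1.69%). Every knockout pool was above both controls for 32 (31.1%, beside 22.2%) and below both for 16 (15.5%, beside 19.2%). The median log2-fold change was 0.10 (the plot of cumulative shares).

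*NGDN* (neuroguidin), a component of the SSU processome, was at 25.4 and 39.4 CPM in control and at 418, 161, and 214 CPM in knockout pools. The groups were far apart, a rise of 3.02 on the log2 scale (SE 0.49, adjusted p = 0.0135). *RCL1*, which acts in the cleavage of the precursor, was at 27.3 and 22.5 CPM in control and at 157, 126, and 180 CPM in knockout pools. Again the groups were far apart, with a rise of 2.63 on the log2 scale (SE 0.33, adjusted p = 0.00705). Both genes kept their call under all 17 alternatives.

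The other calls were genes of Pol I transcription. Their 3′ ends overlap genes on the opposite strand, *PDXDC1* for *RRN3* and *DNAAF1* for *TAF1C*. The counts are uncertain if strand was ignored. *RRN3*, which encodes the factor that makes Pol I competent to initiate, was at 30.7 and 27.2 CPM in control and at 155, 76.3, and 94.1 CPM in knockout pools. The groups did not overlap (a rise of 1.90 on the log2 scale, SE 0.38, adjusted p = 0.0255), but its pseudogenes make the count uncertain, and the call was lost without control pool 2 (log2-fold change 1.84, adjusted p = 0.0529), the sgMTSS1_1 pool (1.54, adjusted p = 0.0711), or the sgMTSS1_3 pool (2.04, adjusted p = 0.0639). *TAF1C*, a subunit of the promoter factor SL1, was at 0.931 and 2.96 CPM in control and at 8.51, 8.08, and 12.8 CPM in knockout pools. The knockout pools were higher (a rise of 2.30 on the log2 scale, SE 0.57, adjusted p = 0.0486), but control pool 1 was at the level of 3 counts, and the call was lost under 8 of 16 alternatives, with adjusted p-values of 0.00819 to 0.157 over all 16.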

How the data were processed

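Libraries from 5 TF-1 pools were made with the QuantSeq 3′ FWD kit. The authors mapped reads to GRCh38 with HISAT2 2.1.0, kept uniquely mapped reads with SAMtools 1.10, and deposited raw counts (whole numbers) for Ensembl genes. The counting program, annotation release, and use of strand are not given in the sources used here, nor is the treatment of PCR duplicates.

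Samples were grouped by their labels. The test was run with edgeR 4.0.16 (R 4.3.3), using filterByExpr at a minimum count of 10 (14391 of 27328 genes), TMM factors (0.876 to 1.13), and glmQLFit with condition alone over all 5 libraries. Benjamini-Hochberg adjustment covered all tested genes. SEs come from each log2-fold change and its F statistic. The biological coefficient of variation was 32.2%. Alternatives were DESeq2 1.42.0, limma-voom (limma 3.58.1), robust estimation, other scalings and filters, thinning, a replicate block, offsets for GC content and transcript length (mgcv 1.9.3), and each library left out. The script was tested on simulated data. Gene positions came from GENCODE release 44 on GRCh38 and promoters from RefSeq (GRCh38.p14).

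The members, lists, and motifs were chosen with earlier results of these data known. All 42 members are named. Values in each library are given for those past an adjusted p-value of 0.05, those with non-overlapping groups and an unadjusted p-value under 0.05, and the 5 with the highest mean CPM. *PES1* was added after its values were seen, and wider-list genes are named where past both thresholds or, chosen later, where too low to be tested. P-values weigh the difference between the groups against the spread between pools. Intervals and floors cover counting error only. They treat each count as an independent molecule, although no molecular identifiers mark such molecules.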

Additional observations from a re-analysis of the deposited data

How the results depend on the processing

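Of 797 values of single genes under 17 alternatives, 712 kept their direction and their side of the threshold. The direction was kept under every alternative for 23 of the 41 tested factors and not for 18. The number of factors called higher was 2 in the main result (4.88%, beside 4.17% of all genes). It was 1 with DESeq2 size factors (2.44%, beside 3.92%) or offsets for GC content and length (2.44%, beside 4.28%), and 3 with limma-voom (7.32%, beside 3.54%). It was 5 with DESeq2 (12.2%, beside 7.34%) or no filter on low counts (11.9%, beside 4.29%). With 1 knockout pool left out, it was 0 or 1 (at most 2.44%, beside 0.801% to 2.41%). The number called lower (0) was 1 with DESeq2 (2.44%, beside 1.69%) or with the offsets (2.44%, beside 2.66%), and 0 with 1 knockout pool left out. In each case with 1 call lower, it was *RRP12*, and the adjusted p-value alone gave the same numbers. The numbers for the factors and for the other ribosome biogenesis genes do not cover fits without a control pool. Such fits moved single factors further, in either direction. Without control pools 1 and 2 in turn, the log2-fold change was −1.36 and 0.18 for *DKC1* and −2.23 and 1.45 for *PES1*. It was 0.74 and 2.27 for *RRS1* and 0.56 and 1.64 for *TSR1*. The median log2-fold change of the factors (0.09) was −0.0672 with library size alone, 0.24 with no filter, 0.00170 with the offsets, and 0.0685 to 0.26 with 1 library left out. The median of all genes moved from −0.03 to −0.17 with library size alone and to 0.11 with no filter, and the median of the factors stayed above it in both. Of the other ribosome biogenesis genes, 4 were higher in the main result (3.88%, beside 4.17% of all genes). The number was 8 with DESeq2 (7.77%, beside 7.34%) or no filter (7.55%, beside 4.29%). With 1 knockout pool left out, it was 2 or 3 (1.94% or 2.91%, beside 0.801% to 2.41%). Lower was 1 with DESeq2 (0.971%, beside 1.69%) or with the offsets (0.971%, beside 2.66%), and 0 with 1 knockout pool left out. Calls over all genes (600 higher, 145 lower) moved as well. They were 1034 and 238 with DESeq2, 1173 and 201 with no filter, 564 and 146 with DESeq2 size factors, 614 and 382 with the offsets, 917 and 432 without control pool 1, 570 and 220 without control pool 2, and 107 and 4, 323 and 24, and 183 and 8 without knockout pools 1, 2, and 3.

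The groups share the pool numbers 1 and 2, but nothing says that pools of the same number were handled together. The gap between both control pools correlated across genes with the gap from sgMTSS1_1 to sgMTSS1_2 (r = 0.17) and, to much the same degree, with the gap from sgMTSS1_1 to sgMTSS1_3 (r = 0.19). Number 3 occurs only in the knockout group, so the sgMTSS1_3 pool had a block of its own and did not inform the difference. With the number as a replicate block, which thus rests on pools 1 and 2 of each group, 894 genes were higher and 200 lower. In this fit, 4 factors were higher (*IMP3*, *NOB1*, *NOP10*, *RRS1*, 9.76%, beside 6.21% of all genes). Lower was 1 factor (*RRP12*, 2.44%, beside 1.39%). With the block and the offsets together, 548 genes were higher and 170 lower. Here 3 factors were higher (*IMP3*, *NOB1*, *NOP10*, 7.32%, beside 3.82% of all genes) and 1 lower (*RRP12*, 2.44%, beside 1.18%). The median of the factors was −0.0264. *GNL3* changed sign to 0.0559 under the replicate block, and *WDR75* (−0.0264), *LTV1* (−0.13), and *NIP7* (−0.12) did so with the block and the offsets.

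None of the other values with a changed sign passed the test. With library size alone, values were −0.0160 for *NCL*, −0.00233 for *UTP15*, −0.0672 for *WDR75*, −0.0711 for *LTV1*, −0.0809 for *NIP7*, and −0.0398 for *DDX21*. With no filter they were 0.0923 for *UBTF*, 0.0453 for *UTP4*, 0.0307 for *UTP14A*, and 0.0786 for *GNL3*, and with at least 10 counts in every library 0.0122 for *UBTF* and 0.0109 for *GNL3*. With the offsets they were −0.0623 for *LTV1* and −0.0969 for *NIP7*. With 1 library left out, the lowest and highest values were −0.17 and 0.42 for *DDX21*, −1.36 and 0.18 for *DKC1*, −0.84 and 0.15 for *EMG1*, −1.17 and 0.23 for *FBL*, −0.28 and 0.23 for *GNL3*, −0.98 and 0.56 for *IMP4*, −0.15 and 0.45 for *LTV1*, −0.68 and 0.12 for *MRTO4*, −0.21 and 0.52 for *NCL*, −0.0824 and 0.19 for *NIP7*, −2.23 and 1.45 for *PES1*, −0.0746 and 0.82 for *RRP9*, −0.11 and 0.0907 for *UBTF*, −0.27 and 0.10 for *UTP14A*, −0.0146 and 0.29 for *UTP15*, −0.41 and 0.35 for *UTP4*, −0.56 and 0.29 for *WDR43*, −0.30 and 0.59 for *WDR75*, and −1.04 and 0.16 for *MTSS1*. With 1 control pool left, its spread is assumed to be that of the knockout pools. Causes of these changes were not tested. The depth of the control libraries limits genes near 3 counts, such as *NOP2*.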

Other observations

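Of the other ribosome biogenesis genes, 3 had counts too low to be tested. *DDX47*, which encodes an RNA helicase, was at 0.173 to 0.621 CPM, *NOP9* at 0.592 to 2.71 CPM, and *TSR3* at 0 to 2.19 CPM. These levels are at or near that of 3 counts in most libraries. The last 500 bases of *DDX47* overlap *APOLD1* and those of *NOP9* overlap *LTB4R2* on the same strand. Whether reads were lost to these overlaps was not tested.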
